A study of Bos grunniens x Bos taurus and Bos grunniens with 12 samples.

Results

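Small RNA from milk exosomes of Jeryak was set against that of yak, both milked in December, over 356 of the 2263 listed small RNAs, namely those whose norm value was 10 or more in 3 or more of the 6 December libraries. Jeryak is the hybrid of yak and Jersey cattle (Bos grunniens x Bos taurus, called Jersey cattle-yak in the sample records), and the other group is yak itself. Both groups were lactating animals of 4 to 5 years milked in Hezuo city, and each group has 3 December libraries. The sample labels number the libraries and name no animals, and the p-values measure the spread between these libraries. By the records the groups differ in breed alone, and no treatment is recorded. The 356 entries are 213 with a cattle name (bta, of 583 in the table), 131 whose closest match is in another species (of 526) and 12 predicted candidates with no miRBase match (named PC, of 1154). A norm value is the copy number of a sequence multiplied by 1 correction factor per library, so it is a relative level.

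MicroRNAs are short RNAs cut from hairpin precursors, and either arm of the hairpin can be kept. The bases near the 5′ end, called the seed (bases 2 to 8), pair with the messenger RNAs that a miRNA represses, so miRNAs with the same seed can share targets. In milk, many of them travel inside exosomes, membrane vesicles that are secreted by the mammary epithelium and by other cells of the udder. In the entry names L and R give bases gained or lost at the 5′ or 3′ end relative to miRBase, ss marks a substitution, and p3 or p5 marks the arm of a hairpin.

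In December, 63 of the 356 entries (17.7%) passed limma at an adjusted p under 0.05, of which 19 (5.34%) were higher and 44 (12.4%) lower in Jeryak. The cattle entries split evenly, with 11 higher and 12 lower, whereas entries of other species had 6 higher and 27 lower and the predicted candidates 2 higher and 5 lower. The higher entries held the whole miR-183 cluster and miR-30e-5p, and the lower ones held miR-375, miR-30f, both arms of miR-199 and many short sequences rich in G and C. The most abundant milk miRNAs, such as miR-30a-5p, miR-148a and miR-200a, did not pass. This balance depends on the test. With the cutoffs of the study methods (an unadjusted test with a minimum fold, over 1189 entries) and equal variances, 92 were higher and 55 lower. Those methods do not state equal variances. With unequal variances, an alternative chosen after seeing the data, fewer entries passed these cutoffs, again more of them higher than lower. The paper reports the same counts as that alternative gave. At an unadjusted p under 0.05 limma had 113 entries, and the groups did not overlap in 126 (35.4%), with Jeryak above in 59 (16.6%) and below in 67 (18.8%). The median log2 fold change over all entries was 0.03, over cattle entries 0.20, over other species -0.38 and over predicted candidates -1.93. Equal library totals moved the median of all entries to -0.13, a median of ratios to 0.24 and equal cattle totals to -0.23.

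**Figure D1:**
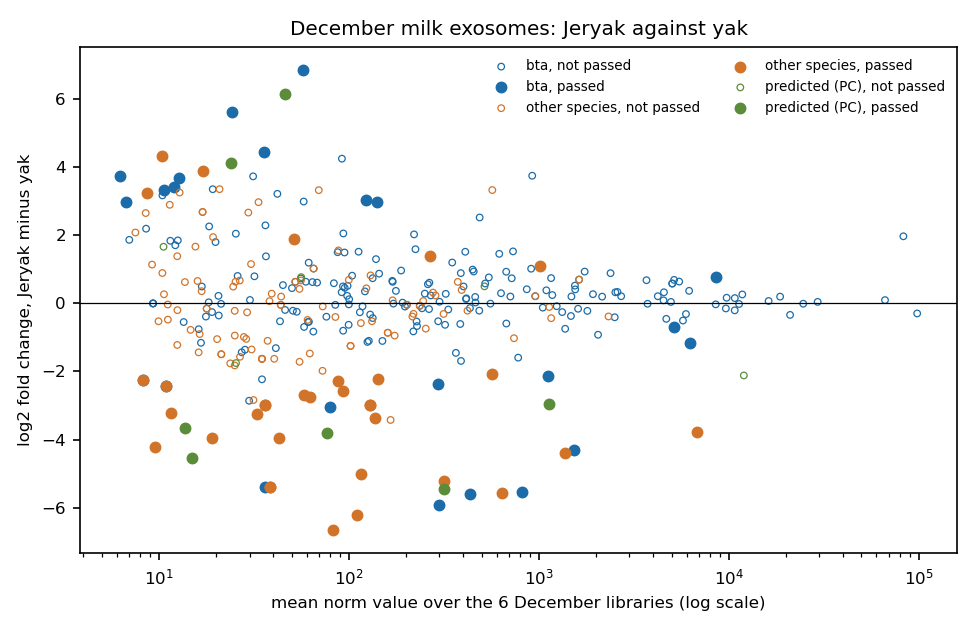
Log2 fold change of Jeryak over yak in December against the mean norm value over the 6 December libraries (log scale) for the 356 entries, coloured by class. Filled points are the 63 entries that passed, 19 above and 44 below the line at 0, and the entries with the highest means lie close to that line.

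The libraries of the 2 breeds differed in depth. One copy was worth 0.127 to 0.269 in norm units in the Jeryak libraries and 0.730 to 1.86 in the yak libraries, and the summed copies were 2281110 to 6168480 in Jeryak and 315876 to 840850 in yak. Values of the yak libraries therefore rest on fewer copies, 3 copies being worth 0.381 to 0.808 in Jeryak and 2.19 to 5.59 in yak. The rule keeps an entry through either group: 13 entries reached 10 in all Jeryak libraries and in no yak library and 18 the reverse, and these had to differ. Among the 325 entries with values of at least 10 in both groups, 8 were higher and 26 lower. In the 294 entries above 3 copies in all 6 libraries, fitted alone, 48 passed (16.3%). In 13 of the 19 higher entries, 2 or 3 yak libraries stood at 0. Yak replicate 1, the deepest yak library, lay nearer to the Jeryak libraries (r = 0.787 to 0.862 across entries) than yak replicates 2 and 3 did (0.694 to 0.784), and libraries of 1 breed correlated at 0.924 to 0.966 in Jeryak and 0.909 to 0.921 in yak. Leaving out 1 library at a time gave 32 (without Jeryak replicate 1) to 81 (without yak replicate 1) passing entries, and 31 of the 63 (6 higher, 25 lower) passed in all 6 of these fits. Without Jeryak replicate 2, which had the highest leukocyte miRNAs, 45 entries passed, 42 of them among the 63.

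The sequences on which the comparison turns are printed as deposited, with T for U. First come cattle entries with seeds in capitals, among them some that share a seed. The seed is the same in miR-96 and miR-1271, and again in miR-30e-5p, miR-30f and miR-30a-5p, while miR-182 and miR-183 have a seed of their own.
bta-miR-182_R-2: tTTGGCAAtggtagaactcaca
bta-miR-96_R-2: tTTGGCACtagcacatttttg
bta-miR-183_R-1: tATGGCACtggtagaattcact
bta-miR-1271: cTTGGCACctagtaagtactca
bta-miR-30e-5p: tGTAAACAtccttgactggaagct
bta-miR-30f: tGTAAACAccctacactctcagct
bta-miR-30a-5p: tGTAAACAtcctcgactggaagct
bta-miR-6524_R+1: tTACTCTGagtaacctaactgt
bta-miR-375_L-1: tTTGTTCGttcggctcgcgtga
bta-miR-199a-5p_R+1: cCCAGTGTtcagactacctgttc
bta-miR-199c_L-1R+2: aCAGTAGTctgcacattggtt
Next are lower cattle entries that are nearly all G and C and overlap one another, with the stretch shared by the entries of a pair in capitals. In the first pair it is the end of one entry and the start of the other.
bta-miR-11985_1ss4AC: ccccccgctCTCCTCCCGCC
bta-miR-12023_1ss17GA: CTCCTCCCGCCcccccac
bta-miR-11972_R-2_1ss4GC: GGGCCGGGAGCGGCCgggg
bta-miR-12030_L-1_1ss10CG: ccgGGGCCGGGAGCGGCC
Last are some of the lower entries of other species and of the predicted candidates, with seeds in capitals. With them are 2 higher entries, the G and C rich cattle entry bta-miR-11975_L-1 and the predicted candidate PC-3p-6267_1215.
bta-miR-11975_L-1: gCGGCGGCggcgccggggc
mmu-miR-5100_L+2R-1: gTTCGAATcccagcggtgcctc
ssc-miR-1285_L-1R+1: tGGGCAACatagcgagaccccgtc
efu-miR-9277_L-3R+1_1: tCGAATCCtgccgactacgcc
chi-miR-29b-5p_L+1R-5: gCTGGTTTcacatggtggc
PC-5p-681_10485: tCCCTGTGgtctagtggttaggat
PC-5p-14546_484: tCCCTGGTctagtggttaggatt
PC-3p-9644_763: tACCTGGTtgatcctgca
PC-3p-6267_1215: aAGAGGATgtataggggc

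The 3 members of the miR-183 cluster, which are made from 1 precursor transcript in mammals and are known from epithelia and sensory organs, were all higher in Jeryak. The norm values of miR-182 were 341, 114 and 301.002 in Jeryak and 31.4, 29.4 and 24.2 in yak (mean ± SD 252 ± 121 in Jeryak and 28.3 ± 3.69 in yak, n = 3 each). Every Jeryak library stood above every yak library, and the log2 fold change was 2.97 ± 0.50 SE, adjusted p = 0.00660. For miR-96 the values were 252, 95.3 and 314 in Jeryak and 21.9, 37.6 and 14.9 in yak, again without overlap (log2 fold change 3.03 ± 0.59 SE, adjusted p = 0.0121). miR-183 was scarcer, at 74.3, 22.7 and 102 in Jeryak and 0, 16.3 and 0 in yak, with 2 of the yak libraries at 0 (log2 fold change 4.46 ± 1.21 SE, adjusted p = 0.0419). Jeryak replicate 2 was the lowest Jeryak library for all 3 members. The call for miR-182 held without any 1 library (adjusted p up to 0.0397), that for miR-96 was lost without Jeryak replicate 1 (adjusted p = 0.0516) or Jeryak replicate 3 (adjusted p = 0.0539), and that for miR-183 held only without yak replicate 2 (adjusted p up to 0.143 without another library). The proportion between 2 members of the cluster overlapped between the breeds, with miR-96 at 0.739, 0.834 and 1.04 of miR-182 in Jeryak and 0.698, 1.28 and 0.615 in yak (two-sided exact permutation test, p = 1). miR-1271, which carries the seed of miR-96, had 17.02, 45.6 and 10.5 in Jeryak and 3.65, 0 and 0 in yak (log2 fold change 3.67 ± 0.88 SE, adjusted p = 0.0293), a value resting on libraries at 0 and held only without yak replicate 1. This entry reached 10 in the Jeryak libraries alone, so that it had to differ.

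A further 3 cattle entries were at 0 in every yak library. miR-6524 had 115, 112 and 119.6 in Jeryak, the narrowest set of values among the higher entries named here relative to its mean (115 ± 4.06 (SD, n = 3)), and passed with an adjusted p of 5.10e-04. The 2 entries of miR-11975, which are 1 sequence with different ends, had 47.2, 46.8 and 52.01 in Jeryak for the shorter and 12.1, 11.3 and 14.1 for the longer (adjusted p = 8.70e-04 and 0.00452). No fold is given for these 3 entries because yak was at 0, and 3 copies in the yak libraries would read 2.19 to 5.59. All 3 entries had to differ, since they were kept through Jeryak alone, and they passed without any 1 library. With values under 10 set to 10 the longer miR-11975 entry did not pass (adjusted p = 0.417). Both miR-11975 entries consist of G and C alone, which sets them apart from the other higher entries.

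The other higher cattle entries were miR-190a, miR-6120-3p and the 3p arm of miR-30b, each above 0 in yak replicate 1 alone of the yak libraries. miR-190a had 17.9, 17.4 and 29.1 in Jeryak and 7.30, 0 and 0 in yak (log2 fold change 3.43 ± 0.93 SE, adjusted p = 0.0419). miR-6120-3p had 18.97, 11.4 and 27.2 in Jeryak and 5.84, 0 and 0 in yak (log2 fold change 3.33 ± 0.90 SE, adjusted p = 0.0419). miR-30b-3p had 14.2, 11.2 and 11.3 in Jeryak and 3.65, 0 and 0 in yak (log2 fold change 2.98 ± 0.79 SE, adjusted p = 0.0408). In all 3 the yak value above 0 rests on few copies, and all 3 were kept through Jeryak alone. Each call held only without yak replicate 1, and without any other 1 library the adjusted p reached 0.142, 0.142 and 0.143 in the same order.

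Within the miR-30 family, whose members share 1 seed and are plentiful in milk, miR-30e-5p and miR-30f moved in opposite directions. miR-30e-5p had 9598, 11245 and 11569 in Jeryak and 6307, 6631 and 5964 in yak, 1.71 times as much on average (log2 fold change 0.77 ± 0.18 SE, adjusted p = 0.0244). miR-30f had 4148, 3689 and 4025 in Jeryak and 5643, 7041 and 6545 in yak, a mean 0.617 times that of yak (log2 fold change -0.69 ± 0.19 SE, adjusted p = 0.0430). These differences are small in fold and lie at high levels. The ratio of miR-30e-5p to miR-30f was 2.31, 3.05 and 2.87 in Jeryak and 1.12, 0.942 and 0.911 in yak. Such a ratio within a library does not depend on its correction factor. Both entries differed without overlap and in opposite directions, so the ratio had to separate the breeds. Its p was therefore fixed in advance (two-sided exact permutation test, p = 0.1, the smallest p that 3 against 3 allows) and adds no evidence. Either call held without only 1 of the 6 libraries, the adjusted p otherwise reaching 0.104 for miR-30e-5p and 0.159 for miR-30f. Of 17 other alternatives, 11 kept the call of miR-30e-5p (adjusted p up to 0.145) and 9 that of miR-30f (adjusted p up to 0.218), the first being lost with equal library totals and the other with a median of ratios. Of the other 4 members none passed: miR-30a-5p, the most abundant entry of the table by its mean in December, had 85936, 76279.9 and 103481 in Jeryak and 117572, 100519 and 105742 in yak (log2 fold change -0.29 ± 0.17 SE, adjusted p = 0.266). The median log2 fold change of the 6 members was -0.27, beside 0.03 over all entries.

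The largest falls among cattle entries were in the overlapping G and C rich sequences printed above. The longer miR-11985 entry had 18.4, 23.99 and 45.8 in Jeryak and 503, 2014 and 2272 in yak (log2 fold change -5.54 ± 0.65 SE, adjusted p = 0.00121). Its form 2 bases shorter at the 5′ end had 3.90, 5.33 and 18.6 in Jeryak and 236, 773 and 760.4 in yak (log2 fold change -5.94 ± 0.71 SE, adjusted p = 0.00129). Jeryak replicate 3 was the highest Jeryak library and yak replicate 1 the lowest yak library for both. One miR-12023 entry (bta-miR-12023_L-1R+1) had 9.75, 12.9 and 25.1 in Jeryak and 520.2, 1455 and 589 in yak (log2 fold change -5.60 ± 0.54 SE, adjusted p = 8.70e-04), and the other (bta-miR-12023_1ss17GA) had 0, 0 and 3.77 in Jeryak and 50.3, 76.8 and 85.7 in yak (log2 fold change -5.38 ± 0.76 SE, adjusted p = 0.00277). miR-11972 had 93.97, 109 and 257 in Jeryak and 1722, 3591 and 3405 in yak, 18.97 times as much in yak (log2 fold change -4.31 ± 0.47 SE, adjusted p = 0.00101). These 5 passed without any 1 library, but bta-miR-12023_1ss17GA reached 10 in no Jeryak library. It was kept through yak alone, so that it had to differ. miR-12030, which shares 15 bases with miR-11972, had 11.9, 9.01 and 34.5 in Jeryak and 90.5, 168 and 164 in yak (log2 fold change -3.04 ± 0.60 SE, adjusted p = 0.0123), a call lost without 2 of the libraries in turn, with an adjusted p of up to 0.0541. Since these entries share bases, they are not separate pieces of evidence.

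The other lower cattle entries were miR-375, miR-199 and miR-2904. miR-375, an epithelial miRNA best known from pancreatic islets, had 4358, 2496 and 4973 in Jeryak and 10589, 7819 and 7244 in yak (mean ± SD 3942 ± 1289.6 in Jeryak and 8551 ± 1788 in yak, n = 3 each), without overlap. Its log2 fold change was -1.16 ± 0.31 SE, adjusted p = 0.0414. Leaving out any 1 library ended this call (adjusted p of 0.0529 to 0.0948), and of 17 other alternatives 11 kept it (adjusted p up to 0.115). Set against miR-200a, another epithelial miRNA, it stood at 0.143, 0.101 and 0.143 in Jeryak and 0.363, 0.267 and 0.260 in yak (two-sided exact permutation test, p = 0.1). The miR-199 precursors, expressed in mesenchymal cells, gave low values on both arms: the 5p arm (bta-miR-199a-5p_R+1) had 1.36, 1.69 and 3.59 in Jeryak and 10.2, 11.99 and 20.5 in yak (log2 fold change -2.25 ± 0.61 SE, adjusted p = 0.0419), and the 3p arm (bta-miR-199c_L-1R+2) 2.75, 1.46 and 4.04 in Jeryak and 12.8, 19.6 and 25.1 in yak (log2 fold change -2.44 ± 0.60 SE, adjusted p = 0.0300). Both entries reached 10 in no Jeryak library and were kept through yak alone, so that they had to differ. The 5p call held without 1 library only (yak replicate 1) and the 3p call without 2, and horse-named entries repeat both arms with the same values. The 2 entries of miR-2904 were lower as well, the p3 form at 54.1, 109 and 108 in Jeryak and 224, 695 and 585 in yak (log2 fold change -2.37 ± 0.53 SE, adjusted p = 0.0213) and the L-1R+3 form at 251, 534 and 316 in Jeryak and 679, 3377 and 1567 in yak (log2 fold change -2.13 ± 0.59 SE, adjusted p = 0.0430). Their calls were lost without most single libraries (adjusted p up to 0.0795 and 0.143).

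**Figure D2:**
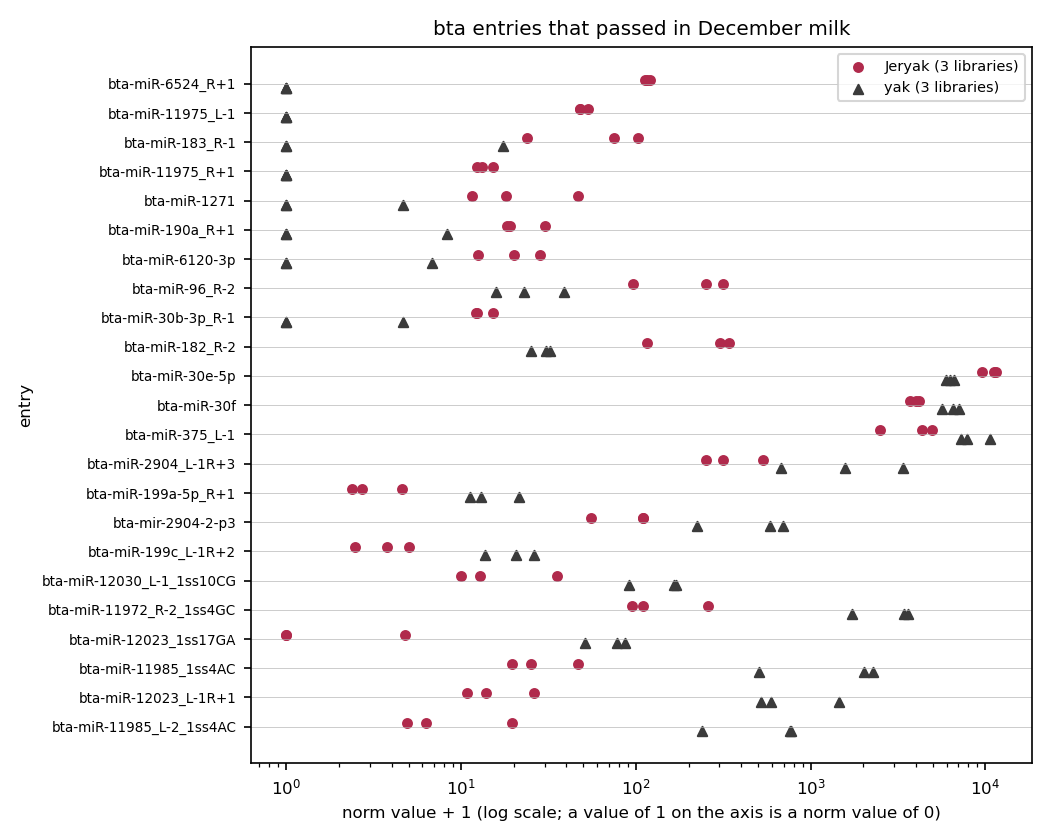
Norm value plus 1 (log scale) in each December library for the 23 cattle entries that passed, ordered by fold change, with Jeryak as circles and yak as triangles. In every row the circles lie wholly to one side of the triangles, and triangles at the left edge are yak libraries at 0, which overlie each other in the rows of miR-6524 and miR-11975.

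Most miRNAs that are plentiful in milk did not pass. Of 24 such miRNAs 0 were higher and 1, miR-375, was lower, with a median log2 fold change of 0.02. miR-148a had 58871, 57473 and 89789.5 in Jeryak and 58244, 84682 and 50203 in yak (log2 fold change 0.10 ± 0.26 SE, adjusted p = 0.823), and miR-200a 30383, 24821 and 34853 in Jeryak and 29203, 29333 and 27854 in yak (log2 fold change 0.05 ± 0.18 SE, adjusted p = 0.891). The groups overlap for both. The widest difference in this list was that of miR-21-5p, a miRNA of many cell types that is raised in activated immune cells and in tumours, with 94838, 267446 and 49239 in Jeryak and 43524, 19411 and 24359 in yak. The groups did not overlap, Jeryak replicate 2 was far above the rest, and the entry missed the threshold (log2 fold change 1.97 ± 0.60 SE, adjusted p = 0.0609). It took 15.1, 34.2 and 8.01% of the summed norm values in Jeryak and 7.09, 3.25 and 4.14% in yak (two-sided exact permutation test, p = 0.1). None of the 9 let-7 and miR-98 members passed (median 0.34), nor did any of the 11 measured of 13 in the miR-17 to miR-92 clusters (median 0.89) or of the 12 measured of 151 bovine family members of miR-2284 or miR-2285 (median 0.47). Those 12 entries hold 10 distinct sets of values, 6 of them with Jeryak above all yak libraries, beside 16.6% of all entries.

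Markers of the cells that could shed RNA into milk were set side by side. The 7 miRNAs of mammary epithelium were all measured, 0 higher and 1 (miR-375) lower, with a median of 0.05 and sums of 68659 to 102150 in Jeryak and 78007 to 103260 in yak. Of the 6 leukocyte miRNAs none passed, yet all 6 had a positive log2 fold change, with a median of 2.28. In 3 of them Jeryak lay above yak without overlap, beside 16.6% of all entries. Their summed level was 975, 13234 and 934 in Jeryak, against 609, 521 and 770 in yak, so that it was highest by far in Jeryak replicate 2, the library that also led for miR-21-5p. miR-223-3p, a marker of neutrophils and monocytes, had 119, 3149 and 56.1 in Jeryak and 39.4, 11.4 and 41.00 in yak (log2 fold change 3.33 ± 1.41 SE, adjusted p = 0.154), and miR-142-5p, found across blood cells, 249.6, 4882 and 256 in Jeryak and 53.3, 32.7 and 68.96 in yak (log2 fold change 3.76 ± 1.10 SE, adjusted p = 0.0572). Without Jeryak replicate 2 miR-142-5p passed (adjusted p = 0.0204). In that same Jeryak library the miR-183 cluster was at its lowest, and the part of leukocyte RNA in the other differences was not tested. Of the red cell markers miR-451 had 6.74, 5.46 and 16.2 in Jeryak and 21.2, 29.4 and 130.5 in yak (log2 fold change -2.23 ± 0.80 SE, adjusted p = 0.103), miR-486 had 8.69, 11.7 and 6.47 in Jeryak and 20.4, 9.81 and 42.9 in yak (log2 fold change -1.16 ± 0.66 SE, adjusted p = 0.265), and miR-144 was at 0 in all 6. Of the 6 stromal and endothelial miRNAs 3 were kept by the rule. miR-143 had 2467, 305 and 776 in Jeryak and 1829.9, 683 and 2203 in yak (log2 fold change -0.74 ± 0.77 SE, adjusted p = 0.526), and miR-145 had 236, 32.2 and 262 in Jeryak and 110.2, 29.4 and 130.5 in yak (log2 fold change 0.74 ± 0.92 SE, adjusted p = 0.598), so that neither passed. The third was the miR-199a entry that had to differ. Of the rest, miR-126 and miR-199b were above 0 in some libraries but did not meet the minimum of the rule. None of the 8 markers of muscle, liver and nervous tissue reached 10 in 3 libraries. The liver miRNA miR-122 nevertheless had 3.55, 96.8 and 6.74 in Jeryak and 7.30, 14.7 and 0 in yak, its highest value being in the library with the highest leukocyte miRNAs. miR-1 of muscle reached 12.1 in yak replicate 3, and miR-133a and miR-124a were at or near 0. In bulk RNA, fewer vesicles from a cell type and less RNA per vesicle cannot be told apart.

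**Figure D3:**
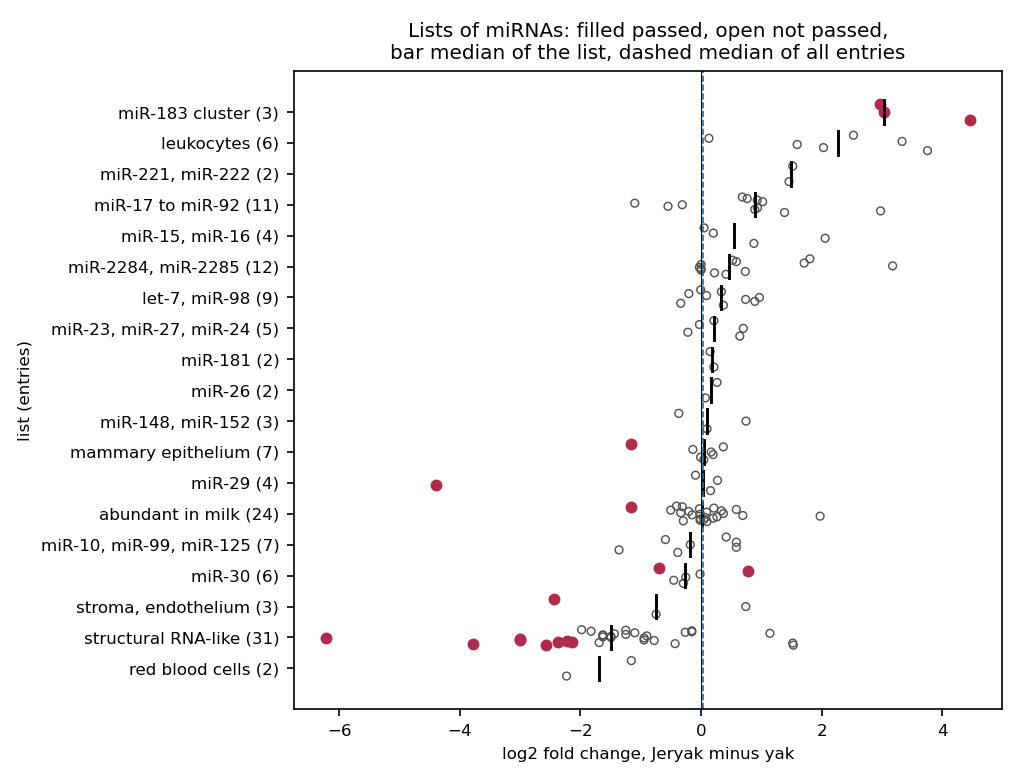
Log2 fold change of Jeryak over yak in December for the entries of 19 lists of miRNAs that the rule kept. Their number is in brackets. Filled points passed and open ones did not, bars are list medians and the dashed line is the median of all 356 entries (0.03); the miR-183 cluster has all 3 members filled on the right, and the 8 filled points of the structural RNA-like list lie on the left.

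Among entries of other species, 27 were lower and 6 higher in Jeryak. The 3 forms of ggo-mir-4488-p5, a gorilla-named sequence rich in C, all passed, and they share 17 bases. The 1ss18TA form had 0.886, 0.888 and 0 in Jeryak and 92.7, 178 and 224 in yak (log2 fold change -6.67 ± 0.59 SE, adjusted p = 8.70e-04). The 1ss18TC form, the most abundant of them, had 16.7, 15.4 and 43.8 in Jeryak and 550.1, 1488 and 1738 in yak (log2 fold change -5.58 ± 0.59 SE, adjusted p = 0.00101). The mouse-named miR-5100 entry (mmu-miR-5100_L+2R-1) had 3.28, 0.381 and 2.96 in Jeryak and 231, 150.4 and 275 in yak (log2 fold change -6.22 ± 0.61 SE, adjusted p = 8.70e-04). The 2 bat-named miR-9277 entries carry identical values, 1.77, 0.508 and 0 in Jeryak and 38.3, 62.1 and 128 in yak (log2 fold change -5.41 ± 0.69 SE, adjusted p = 0.00172), and count as 1 measurement. The Jeryak values of the 1ss18TA form and of miR-9277 rest on few copies, whereas the lowest yak value of the entries just described was 38.3. The 1ss18TA form, mmu-miR-5100_L+2R-1 and miR-9277 reached 10 in no Jeryak library. They were kept through yak alone, so that they had to differ.

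Larger in absolute amount was the pig-named ssc-miR-1285_L-1R+1, with 741, 494 and 1833 in Jeryak and 8241, 15337 and 14090.0 in yak (log2 fold change -3.79 ± 0.49 SE, adjusted p = 0.00180). It was the most abundant of all 44 lower entries by its mean over the 6 libraries. chi-miR-29b-5p_L+1R-5, a goat-named form of the 5p arm of miR-29b, had 82.1, 34.01 and 392 in Jeryak and 979, 4091 and 2620.4 in yak (log2 fold change -4.39 ± 0.90 SE, adjusted p = 0.0149), a call that held without 3 of the 6 libraries. The cattle entry bta-miR-29b_R-2 is the opposite arm, with a different seed. It had 293, 272 and 363 in Jeryak and 279, 181 and 177 in yak, and did not pass (log2 fold change 0.56 ± 0.32 SE, adjusted p = 0.266). The platypus-named oan-miR-1386_L+1R-1 stood at 0 throughout in Jeryak, against 12.4, 14.7 and 29.8 in yak (adjusted p = 0.00365), whereas the unmodified oan-miR-1386, with 23.05, 22.8 and 12.4 in Jeryak and 43.05, 67.01 and 74.6 in yak, did not pass (log2 fold change -1.63 ± 0.49 SE, adjusted p = 0.0609). eca-mir-703-p5 had 1.95, 2.92 and 16.4 in Jeryak and 75.9, 346 and 249.7 in yak (log2 fold change -5.01 ± 0.86 SE, adjusted p = 0.00688). Among the others, hsa-miR-10400-5p_R-3_1ss12GA had 2.75, 3.74 and 4.99 in Jeryak and 47.4, 54.8 and 143 in yak (log2 fold change -3.94 ± 0.60 SE, adjusted p = 0.00377), and hsa-miR-4448_R-2_1ss6CG 7.80, 2.60 and 5.39 in Jeryak and 97.8, 50.7 and 33.5 in yak (log2 fold change -3.26 ± 0.62 SE, adjusted p = 0.0120). The lower entries not described one by one had log2 fold changes of -5.22 (the remaining form of ggo-mir-4488-p5) to -2.07 (pal-mir-10001-p5). Of the 27 lower entries 15 passed without any 1 library. Over all classes, however, 18 lower entries were kept through yak alone and had to differ. Among those are oan-miR-1386_L+1R-1, hsa-miR-10400-5p_R-3_1ss12GA, hsa-miR-4448_R-2_1ss6CG and the entries so marked above. A list held 77 entries, arms and variants included, under names that resemble fragments of structural RNA (among them miR-5100, miR-1285, miR-2887, miR-2904 and miR-6240). The rule kept 31 of these entries, 0 higher and 8 lower, beside 12.4% lower over all entries. Some of these are copies or arms with the same values, and over the 25 distinct sets of values 7 were lower and 22 negative, with a median log2 fold change of -1.44 against 0.03 over all entries. This list was written with the names and earlier results known, so its direction is not independent evidence, and whether the sequences come from structural RNA was not tested. Its summed level, with each set of values counted once, was 2609 to 6123 in Jeryak and 11034 to 22595 in yak, without overlap.

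The 6 higher entries of other species were mostly the less abundant arms of known precursors. chi-miR-16b-3p had 12.4, 32.6 and 17.5 in Jeryak and was at 0 in yak (adjusted p = 0.00330), and hsa-miR-16-1-3p had 11.9, 52.3 and 31.8 in Jeryak and 5.84, 0 and 0 in yak (log2 fold change 3.89 ± 0.97 SE, adjusted p = 0.0318). chi-miR-148b-5p had 13.8, 18.02 and 15.6 in Jeryak and 4.38, 0 and 0 in yak (log2 fold change 3.26 ± 0.81 SE, adjusted p = 0.0326). The major arms did not pass: miR-16b had 152.030, 587 and 243 in Jeryak and 261, 335 and 224 in yak (log2 fold change 0.05 ± 0.51 SE, adjusted p = 0.969), and miR-148b had 1265, 1865 and 1252 in Jeryak and 939, 931 and 717 in yak (log2 fold change 0.75 ± 0.27 SE, adjusted p = 0.105). As a percentage of its major arm, the minor arm of miR-148b was 1.09, 0.966 and 1.25% in Jeryak and 0.466, 0 and 0% in yak, and that of miR-16b was 8.16, 5.55 and 7.21% in Jeryak and 0% throughout in yak (two-sided exact permutation test, p = 0.1 for each). These 3 entries were kept through Jeryak alone and had to differ. The yak values of these minor arms rest on few copies or none, so the depth of the yak libraries limits this comparison. Of these 3 only the call for chi-miR-16b-3p held without every single library. The better measured ones were chi-miR-340-5p, with 1200.3, 1618 and 1341 in Jeryak and 721, 633 and 578 in yak (log2 fold change 1.10 ± 0.24 SE, adjusted p = 0.0213), and chi-miR-30e-3p_R+1, with 482, 347 and 319.6 in Jeryak and 196, 96.4 and 155 in yak (log2 fold change 1.39 ± 0.38 SE, adjusted p = 0.0419), the arm opposite to miR-30e-5p and higher with it. Their calls held without 2 libraries and 1 library (adjusted p otherwise up to 0.0861 and 0.145). eca-mir-1543-p5 had 101, 47.7 and 98.1 in Jeryak and 14.6, 21.2 and 26.1 in yak (log2 fold change 1.91 ± 0.50 SE, adjusted p = 0.0400), and it too was called without 1 library only (adjusted p up to 0.144).

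Of the 12 predicted candidates 7 passed. PC-3p-6267 had 174, 74.9 and 26.4 in Jeryak and was at 0 in every yak library (adjusted p = 0.00162), holding without any 1 library, and PC-5p-1497 had 50.9, 40.5 and 38.3 in Jeryak and 0, 0 and 14.9 in yak (log2 fold change 4.12 ± 1.10 SE, adjusted p = 0.0414), holding only without yak replicate 3. The 5 lower candidates all passed without any 1 library. PC-5p-681, the most abundant of them, had 194, 259 and 313 in Jeryak and 2389.5, 2203 and 1443 in yak (log2 fold change -2.97 ± 0.32 SE, adjusted p = 0.00101). PC-5p-14546, whose sequence resembles it, had 7.98, 9.77 and 10.5 in Jeryak and 158, 132 and 139.8 in yak (log2 fold change -3.80 ± 0.41 SE, adjusted p = 0.00101). PC-3p-9644 had 5.50, 12.4 and 24.5 in Jeryak and 353, 892 and 609 in yak (log2 fold change -5.47 ± 0.61 SE, adjusted p = 0.00101). PC-3p-67666 and PC-5p-174040 were at or under 2.13 in Jeryak and between 14.9 and 41.0 in yak. These were kept through yak alone, and PC-3p-6267 through Jeryak alone, so that all of them had to differ. The candidate with the highest level, PC-3p-239, did not pass, with 3122, 2162 and 7652 in Jeryak and 5952, 26554 and 26663 in yak (log2 fold change -2.12 ± 0.68 SE, adjusted p = 0.0745). It gave most of the share of predicted candidates in the summed norm values, which was 0.759, 0.461 and 1.53% in Jeryak and 1.58, 5.23 and 5.05% in yak.

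**Figure D4:**
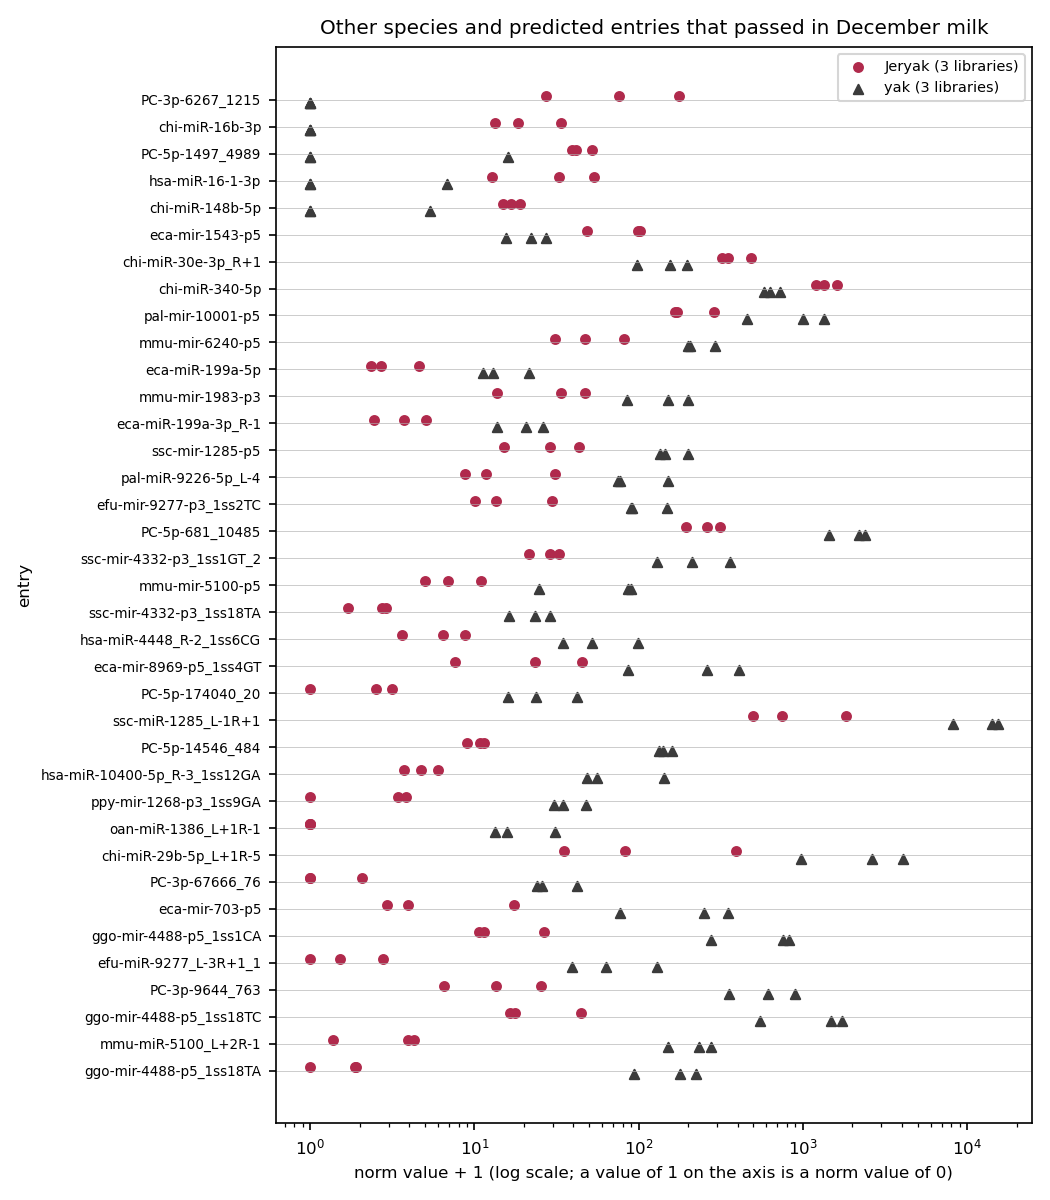
Norm value plus 1 (log scale) in each December library for the passing entries of other species and predicted candidates, 1 row for each distinct set of values, with Jeryak as circles and yak as triangles. The 8 rows at the top have Jeryak to the right and all rows under them have Jeryak to the left, with no row in which the breeds overlap.

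What the passing entries shared beside their level was composition and length. The 44 lower entries had a median G and C content of 65.8% and a median length of 18 nt, the 19 higher ones 41.7% and 22 nt, and the 293 that did not pass lay between these medians in G and C and had a median of 22 nt. Of the 30 entries with at least 75% G and C, 17 were lower and 2, both of miR-11975, were higher, beside 27 lower and 17 higher of the other 326. These counts include overlapping sequences. Among the 17 are 4 entries of miR-11985 and miR-12023, 2 of miR-11972 and miR-12030, 3 of ggo-mir-4488-p5 and 3 of ssc-mir-4332-p3. The 2 of miR-11975 are 1 sequence with different ends. Of the 60 entries of 18 or 19 nt, 26 were lower and 3 higher, beside 18 lower and 16 higher of the 296 longer ones. The summed share of entries with at least 75% G and C was 0.170, 0.213 and 0.230% in Jeryak and 1.06, 2.47 and 2.60% in yak, and that of 18 nt sequences 0.641, 0.418 and 0.490% in Jeryak and 1.18, 2.26 and 2.45% in yak. Cattle entries made up 96.2 ± 0.722% of the summed norm values in Jeryak and 89.7 ± 3.28% in yak (SD, n = 3 each). None of these shares overlapped between the breeds (two-sided exact permutation test, p = 0.1 for each, the smallest possible). The share of 19 nt sequences did overlap (two-sided exact permutation test, p = 0.2). It was 1.24, 1.31 and 0.939% in Jeryak and 1.25, 2.20 and 2.06% in yak. Depth moved with breed as given above, and its part in the shares was not tested.

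**Figure D5:**
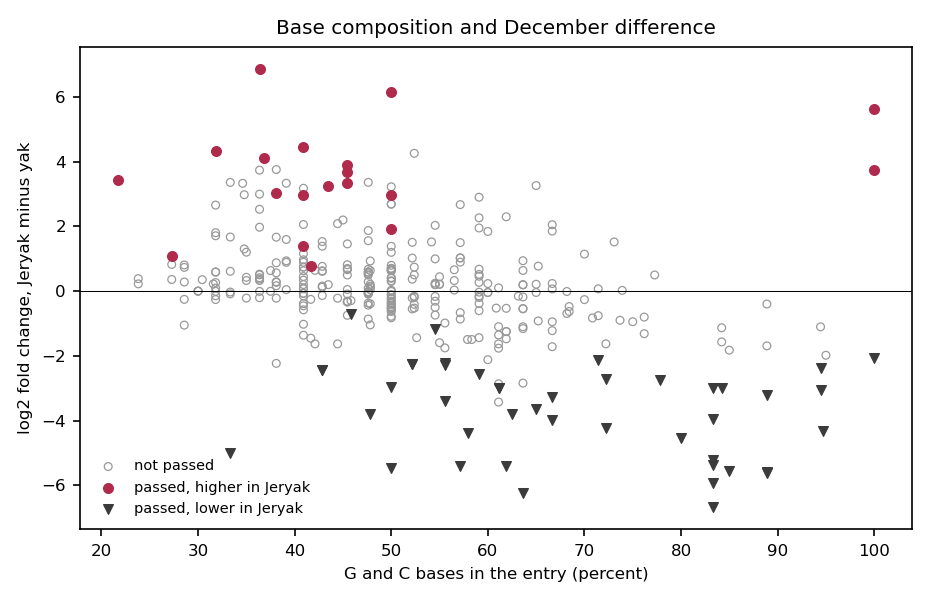
Log2 fold change of Jeryak over yak in December against the percentage of G and C bases of each of the 356 entries. Lower entries (triangles) spread from 33.3% upwards and make up 17 of the 30 entries at 75% or more, whereas 17 of the 19 higher entries (filled circles) lie at or under 50%.

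The June libraries, 3 from each breed, were not used in choosing the entries. The same comparison in June passed none of the 356 entries in limma, with 22 at an unadjusted p under 0.05 and a lowest adjusted p of 0.241. Of the 18 higher December entries present in June, 15 had a positive and 3 a negative June log2 fold change, and of the 38 lower ones 22 were positive and 16 negative, beside 198 positive and 138 negative of all 336 present. miR-182 had a June log2 fold change of 1.64 and miR-96 of 1.16, with adjusted p-values of 0.241 and 0.754, and miR-30e-5p of 0.06 (adjusted p = 0.996). The breed difference itself differed between December and June in 20 of 356 entries (5.62%) by the interaction of breed and month in limma, and 19 of these were among the 63, of which 17 were lower and 2 higher in December. The miR-183 cluster, miR-30e-5p, miR-30f and miR-375 were not among them, with interaction adjusted p-values of 0.305 for miR-182, 0.278 for miR-30e-5p and 0.411 for miR-375. The rule kept entries by December values, which also enter the interaction, and many of the 19 were kept through 1 December group alone. A larger difference in December is therefore favoured by the rule, and these counts are not independent evidence. The month cannot be told apart from any batch of library preparation or sequencing.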

How the data were processed

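Small RNA libraries (TruSeq Small RNA, single-end reads) of exosomes isolated from milk by density gradient centrifugation were used as deposited. The authors trimmed reads, removed reads matching other RNA classes and matched unique sequences to miRBase 22.0 with ACGT101-miR, cattle first and other species next. Unmatched sequences were folded against a genome, of which the sources used here give no build. The deposited values are a signal, the copy number corrected by 1 factor per library, and are not counts; whole copies were not recovered for all entries. An emptied line of the table is not reported here.

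Norm values of the 6 December libraries were log2-transformed after 1 was added and fitted with limma (version 3.58.1; R 4.3.3) using its mean-variance trend, and p-values were adjusted by Benjamini-Hochberg over the 356 entries. A positive log2 fold change means higher in Jeryak, and it understates changes of low values. June was fitted in its 6 libraries and the interaction in all 12. Single shares and ratios were compared by exact permutation over libraries, which cannot go under 0.1. The fit was tested on simulated data. Entry lists, the members of the comparison and the tests were chosen with earlier results of these data known. Lists are described by counts and medians, each member by its entry with the highest mean, although arms and copies count separately in the structural RNA-like and miR-2284 or miR-2285 lists. Entries were named by a rule: up to 12 cattle, 8 other-species and 4 predicted entries in each direction, by fold change, among those that passed without overlap, the 8 most abundant entries, and in each list the members that passed with up to 3 more. Major arms set beside minor ones, bta-miR-29b_R-2, the unmodified oan-miR-1386, miR-122 and miR-1 were added to the rule after their values were seen. Alternatives changed the added constant, the minimum, the scaling, the weights, the samples in the fit and the block by replicate number, and left out each library. Tables were handled with Python 3.11.15 and pandas 2.3.3.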

Additional observations from a re-analysis of the deposited data

Results flagged for a closer look

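The breed difference in December differed from that in June, by the interaction of breed and month in limma over 12 libraries, in 20 of 356 entries (5.62%), and 19 of these had passed in December. The values given are the December log2 fold change minus the June one, each of Jeryak against yak. Among cattle entries it was 3.82 for miR-6524, whose June log2 fold change was 3.04 (limma, adjusted p = 0.241), and -5.38 for bta-miR-12023_1ss17GA. Among other species, the value was -6.73 for both bat-named miR-9277 entries (efu-miR-9277_L-3R+1_1 and its twin), -6.67 for ggo-mir-4488-p5_1ss18TA, -6.37 for mmu-miR-5100_L+2R-1, -6.21 for oan-miR-1386_L+1R-1, -6.18 for eca-mir-703-p5 and -5.93 for hsa-miR-10400-5p_R-3_1ss12GA. It was -5.23 for hsa-miR-4448_R-2_1ss6CG, -4.66 for chi-miR-29b-5p_L+1R-5, -4.62 for ssc-miR-1285_L-1R+1, -3.35 for pal-mir-10001-p5 and -3.22 for ssc-mir-4332-p3_1ss18TA. Of the predicted candidates PC-3p-9644 had -6.79, PC-3p-67666 -4.54, PC-5p-681 -4.16, PC-5p-174040 -3.65 and PC-3p-6267 6.16. bta-miR-12023_1ss17GA, ggo-mir-4488-p5_1ss18TA, ssc-mir-4332-p3_1ss18TA, PC-3p-67666, PC-5p-174040 and PC-3p-6267 were at 0 in all June libraries, so for them the value is the December difference alone. In December miR-6524 and PC-3p-6267 were at 0 in all yak libraries and oan-miR-1386_L+1R-1 in all Jeryak libraries. Their values depend on the 1 added before taking log2, and are neither folds nor bounds. The rule kept miR-6524 and PC-3p-6267 through Jeryak in December alone. It kept bta-miR-12023_1ss17GA, miR-9277, ggo-mir-4488-p5_1ss18TA, mmu-miR-5100_L+2R-1, oan-miR-1386_L+1R-1, hsa-miR-10400-5p_R-3_1ss12GA, hsa-miR-4448_R-2_1ss6CG, PC-3p-67666 and PC-5p-174040 through yak alone. The December difference of these entries was fixed by the rule and enters their values here.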

How the results depend on the processing

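Against 63 passing entries, 34 passed with a minimum of 50, 15 when cattle entries were fitted alone and 147 by the criteria of the study methods (an unadjusted test with equal variances and a minimum fold, over 1189 entries). These 147 were 92 higher and 55 lower in Jeryak (cattle 46 and 14), opposite in balance to the 19 higher and 44 lower of limma. With unequal variances, an alternative chosen after seeing the data, these criteria gave 78 (55 higher and 23 lower). The paper reports the same counts for this comparison. Its methods name a t-test and do not state equal variances. Leaving out 1 library gave 32 to 81. Cattle entries passed in 23 cases, and in 15 with all 12 libraries in the fit, 14 with a minimum of 50, and 10 to 33 without 1 library. Entries of other species passed in 33 cases, in 17 with a minimum of 50, and in 16 to 41 without 1 library. Predicted candidates passed in 7 cases, in 11 with no minimum, 3 with a minimum of 50, 4 when all libraries had to exceed 3 copies (chosen after seeing the data), and 6 to 8 without 1 library. June had 0 to 1 without 1 library, the 1 being without Jeryak replicate 2. No entry changed direction: over the 63 entries, alternatives other than leaving out a library kept 821 calls and lost 134, and leaving out a library kept 245 and lost 133; the causes were not tested.

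Same-numbered libraries of the 2 breeds did not deviate together (correlations 0.032, -0.099 and -0.108). The labels do not say whether the numbers pair the libraries, and these correlations cannot exclude it. The replicate block gave 40 passing entries (13 cattle, 21 of other species and 6 predicted), 39 of them among the 63. Yak libraries of 315876 to 840850 copies limit what can be said of entries near 0 in yak.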
